A study of Mus musculus with 6 samples.

Results

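The villin and gelsolin family was followed through 5 genes of the deposited table, Vill, Gsn, Capg, Flii and Svil, out of 13008 genes in all. The members were taken by symbol from a list of gelsolin-related genes, and each had 1 row. Vill was chosen by its normalized values in the contrast of Control with Cripto KO macrophages (MPs) in this same table, so its values there are a description and carry no test. Gsn, Capg, Flii and Svil were listed for their family, and were used as the members that do not lie on the chromosome of Vill.

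RNA-seq was performed on F4/80+/Ly6CLow MPs, isolated by FACS from cardiotoxin-injured hind limb muscles of male C57BL/6J mice at 3 months of age, on day 5 after injury. There were 3 Control samples, labelled wild type, and 3 samples of genotype Tg:LysMCre::Cripto-/- (Cripto KO), and the study describes both groups as carrying LysMCre and a GFP reporter of Cre activity and as sorted for GFP. The LysMCre line drives Cre in the myeloid lineage, so loss of Cripto was limited to cells in which Cre had acted. Cripto is encoded by Tdgf1, which was not analysed here, and the genotypes are therefore given as labelled, without a check at the deleted locus in these samples. By genomic PCR on an earlier day after injury, the study found the deletion incomplete, though more complete in GFP-sorted cells than in all MPs. By ELISA it found less Cripto protein in GFP-sorted Cripto KO MPs than in Control MPs. The study calls the samples of each group biological replicates, and the labels do not say whether animals were pooled. In bulk RNA, fewer cells of a type and less RNA per cell cannot be told apart.

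Proteins of the gelsolin superfamily are built from repeated gelsolin-like domains that bind actin, mostly under the control of calcium and phosphoinositides. Gelsolin (Gsn) cuts actin filaments and stays on as a cap of the fast-growing barbed end, whereas CapG (Capg), an abundant protein of macrophages, caps barbed ends without cutting. Villin, the best known member, bundles and severs actin in the microvilli of epithelial cells, and Vill encodes a villin-like protein with the same layout of gelsolin repeats and a C-terminal headpiece. Flightless I (Flii) joins leucine-rich repeats to gelsolin repeats and also acts in the nucleus and in Toll-like receptor signaling, and supervillin (Svil) is a membrane-associated member that binds myosin and carries a villin-type headpiece.

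On GRCm38 (GENCODE mouse release 21), Vill (ENSMUSG00000038775) lies on chromosome 9 from 119052778 to 119071525 on the plus strand, 8.11 Mb from Tdgf1. The next gene downstream of Vill is Plcd1 (ENSMUSG00000010660), which encodes a phospholipase C that cleaves phosphoinositides. Plcd1 runs toward Vill on the minus strand from 119093502 to 119071527, so the annotated ends of the genes are 2 bases apart.

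Vill and Plcd1 were both lower in each Cripto KO sample than in each Control sample, a pattern found in 8.02% of all genes. The promoters of Vill and Plcd1 are shown next to that of Capg, the most strongly expressed member. Each runs from 250 bases before to 50 bases after a start site in RefSeq on GRCm38.p6, and is written 5′ to 3′ on the gene's strand, with CG dinucleotides in capitals. The windows are chr9:119052528-119052827 on the plus strand for Vill, chr9:119093453-119093752 on the minus strand for Plcd1 and chr6:72549397-72549696 on the plus strand for Capg.
Vill: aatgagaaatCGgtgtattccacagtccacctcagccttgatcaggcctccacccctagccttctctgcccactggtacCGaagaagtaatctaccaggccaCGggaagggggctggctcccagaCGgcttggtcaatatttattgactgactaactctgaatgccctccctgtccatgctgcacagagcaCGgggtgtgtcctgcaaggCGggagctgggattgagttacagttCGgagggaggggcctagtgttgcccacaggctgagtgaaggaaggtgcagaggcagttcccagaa
Plcd1: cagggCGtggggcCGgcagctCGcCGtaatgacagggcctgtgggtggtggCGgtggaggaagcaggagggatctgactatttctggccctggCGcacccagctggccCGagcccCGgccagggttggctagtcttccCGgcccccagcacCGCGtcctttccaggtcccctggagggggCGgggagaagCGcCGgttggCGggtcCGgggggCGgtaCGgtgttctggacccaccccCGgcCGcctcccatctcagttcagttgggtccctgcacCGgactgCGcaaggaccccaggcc
Capg: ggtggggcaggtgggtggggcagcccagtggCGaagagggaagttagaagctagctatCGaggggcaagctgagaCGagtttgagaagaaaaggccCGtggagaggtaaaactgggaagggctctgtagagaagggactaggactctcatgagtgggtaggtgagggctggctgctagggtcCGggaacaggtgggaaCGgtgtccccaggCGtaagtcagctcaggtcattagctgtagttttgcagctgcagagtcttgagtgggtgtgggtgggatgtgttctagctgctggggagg
The Vill window held 7 CG dinucleotides, as did that of Capg, and 7 was also the median over 32851 promoters in the table. The Plcd1 window held 22, more than 76.9% of promoters, and a second RefSeq start of Plcd1 (chr9:119088212-119088511) held 11. The windows of Gsn, with 3 annotated starts, held 2 to 20, and that of Flii held 26. On both strands, TATAAA (in 13.6% of promoters) and CCAAT (37.4%) were in none of the 3 windows printed. GAGGAA (28.3%) occurred 1 time in the Plcd1 window, CAGAC (49.6%) 1 time in that of Vill, and none of the 4 motifs contains another.

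A deposited value is the number of reads of a gene plus 0.5, scaled to a normalized library of 1000000 reads, so the number of reads could be worked back from it. The recovered totals were between 12688968 and 15659847 reads per sample, and a gene with 3 reads, taken as the floor, had a value of 0.222 to 0.286. The 7 macrophage markers were all present, with a summed value between 8229 and 9355 in all samples. Individual Control samples stood apart in other genes. Xist was 171 in Control replicate 1 and at most 0.885 in the other samples, against a label of male, and Lyz2 was 11066 in Control replicate 2 and at most 28.3 in the other samples. Lyz2 is the locus into which Cre is inserted in LysMCre mice, so at this locus Control replicate 2 stood apart from the other 5 samples, while its label is that of the other Control samples. Over all genes, 17 of 13008 (0.131%) had an adjusted p-value under 0.05 (limma) between Control and Cripto KO MPs, 1117 (8.59%) had an unadjusted p-value under 0.05, and in 1880 (14.5%) the groups did not overlap. Split by direction, these shares were 0.0846% (Control higher) and 0.0461% (Cripto KO higher) for the adjusted p-value, 4.6% and 3.99% for the unadjusted one, and 8.02% and 6.43% for groups without overlap. The same share of 0.131% was called by edgeR and 0.593% by DESeq2.

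Vill mRNA was present in every Control sample and close to absent from every Cripto KO sample. Its normalized value was 24.1, 10.4 and 7.47 in Control replicates 1, 2 and 3, and 0.0952, 0.0354 and 0.0345 in Cripto KO replicates 1, 2 and 3. In recovered reads this was 327, 137 and 91 reads against 1, 0 and 0 reads, so the groups did not overlap and all Cripto KO samples were at the floor. The exact Poisson 95% interval was 293 to 364 reads for Control replicate 1, 115 to 162 for Control replicate 2 and 73.3 to 112 for Control replicate 3. As normalized values these intervals were 21.6 to 26.9, 8.74 to 12.3 and 6.02 to 9.16. Control replicate 1 thus differed from the other Control samples by more than counting error, while the intervals of Control replicates 2 and 3 overlapped. Between the highest and the lowest Control value there was 3.23-fold. By the same interval, the 1 read of Cripto KO replicate 1 allowed up to 5.57 reads (a value of 0.386), and 0 reads allowed up to 3.69 reads (0.297 in Cripto KO replicate 2 and 0.289 in Cripto KO replicate 3). The floor of 3 reads lies below these limits, at a value of 0.248 and 0.241 in the latter samples. The values of the Control samples were 26.1 to 93.6 times the value of 3 reads in the same sample. These intervals and limits cover counting error only.

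Summed over the groups, Vill had 555 reads in Control and 1 read in Cripto KO samples. Per unit of normalized library size this was a ratio of 631 (exact binomial 95% interval of the counts, 113 to 24960). The intervals of these ratios cover counting error only and leave out the spread between samples. Control replicate 1 had the highest Vill, and is the sample with Xist at 171 against a label of male. Without Control replicate 1 the ratio was 397 (70.6 to 15763). Leaving out Control replicate 2 or 3 or Cripto KO replicate 2 or 3 gave ratios from 425 to 769. The lone read came from Cripto KO replicate 1, and without that sample Vill had 555 reads against 0. The exact interval of that ratio began at about 110. Setting the summed reads of the remaining Cripto KO samples to 3, and not each sample to 3, gave about 136. Vill was the only gene of the table with at least 91 reads in each Control sample and at most 1 read in each Cripto KO sample, limits that are those of Vill itself and that it meets by construction. With at least 20 reads in each Control sample and at most 3 in each Cripto KO sample, 3 genes met the limits, Vill, Gm15501 and Gm8116, of which the latter were named after their values had been seen. No gene met either pair of limits in the opposite direction. The transcripts of Vill shared none of their 4594 words of 31 bases with another gene on either strand, Plcd1 included.

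Markers of muscle fibers moved along with Vill in part of the samples. The 9 genes summed to 88.4, 47.8 and 43.2 in Control replicates 1, 2 and 3, the same order as Vill in these samples, and to 64.5, 26.0 and 22.4 in the Cripto KO replicates. Of the 9, 6 were higher in Control at an unadjusted p-value under 0.05 (limma), beside 4.6% of all genes. Mylpf (log2 fold change -0.07) and Myl1 (-0.25) had the opposite sign, without passing that threshold. Cripto KO replicate 1 had a higher sum than Control replicates 2 and 3 and had 1 read of Vill, against 137 and 91 reads in those samples. Single markers differed in this order. Acta1 was 19.4 in Cripto KO replicate 1, against 9.80 and 8.77 in Control replicates 2 and 3, whereas Myh4 was 5.62 against 7.08 and 6.32. The part of these markers in the values of Vill, between the groups or among the Control samples, was not tested.

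**Figure D1:**
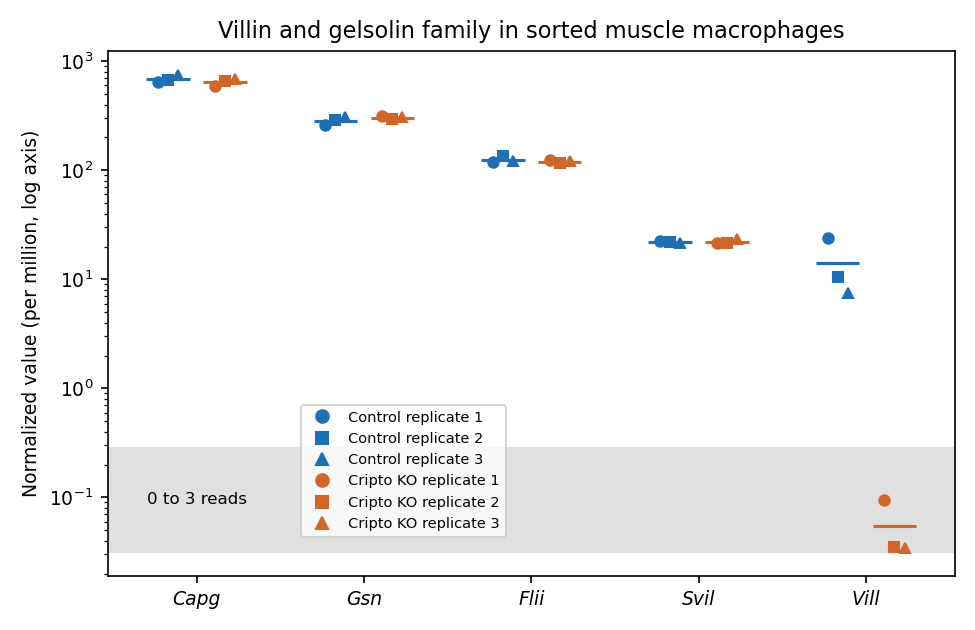
Normalized values (scaled to 1000000 reads, log axis) of the 5 members in each sample, with Control in blue, Cripto KO in orange, replicates by symbol and group means as bars. Capg, Gsn, Flii and Svil overlap between the groups, whereas Vill is between 7.47 and 24.1 in Control and lies in the shaded range of 0 to 3 reads in the Cripto KO samples.

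The 4 unlinked members had overlapping values in both groups, and none passed the test. Limma, edgeR and DESeq2 each called 0 of 4, beside 0.131%, 0.131% and 0.593% of all genes. In limma 0 of 4 had an unadjusted p-value under 0.05, beside 8.59% of all genes. Groups without overlap were found in 14.5% of all genes. With shares this low, counts of 0 among 4 genes do not set these members apart from other genes. Capg (ENSMUSG00000056737), on chromosome 6 from 72544391 to 72562983, had values of 641, 675 and 754 in the Control replicates, against 592, 658 and 683 in the Cripto KO replicates. These ranges overlap, and the log2 fold change (Control/Cripto KO) of 0.10 had a 95% interval of -0.09 to 0.29 (limma, adjusted p = 0.788). Gsn (ENSMUSG00000026879), on chromosome 2 from 35256380 to 35307892, had values of 262, 289 and 305 in Control, against 313, 294 and 307 in Cripto KO MPs. Control replicate 1 was the lowest, and the other values lay within 289 to 313, with a log2 fold change of -0.10 (interval -0.26 to 0.07, limma adjusted p = 0.752). The 8 fibroblast markers, from cells that also express Gsn, summed to 469 to 493 in Control, against 554 to 603 in Cripto KO samples, without overlap. Of the 8, 5 were higher in Cripto KO at an unadjusted p-value under 0.05 (limma), beside 3.99% of all genes. The part of these markers in the values of Gsn was not tested.

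Flii (ENSMUSG00000002812), on chromosome 11 from 60714123 to 60727263, had values of 118, 135 and 122 in Control, against 123, 116 and 121 in Cripto KO MPs. Control replicate 2 was the highest and the other values overlapped, with a log2 fold change of 0.05 (interval -0.11 to 0.21, limma adjusted p = 0.864). Svil (ENSMUSG00000024236), on chromosome 18 from 4920540 to 5119299, had values of 22.3, 21.9 and 21.4 in Control, against 21.4, 21.6 and 23.5 in Cripto KO MPs. Of the 4 it varied least over the 6 samples, with a coefficient of variation of 3.54% against 5.28% for Flii, 6.27% for Gsn and 8.01% for Capg, and its log2 fold change was -0.02 (interval -0.22 to 0.18, limma adjusted p = 0.969). On a linear scale, the intervals of the fold Control/Cripto KO were 0.936 to 1.22 for Capg, 0.834 to 1.05 for Gsn, 0.930 to 1.16 for Flii and 0.858 to 1.13 for Svil. Differences of a size within these intervals could not be told from none with 3 samples a group. The median log2 fold change of the 4 members was 0.02, beside 0.01 over all genes.

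Levels of different members were compared per kb of annotated exon. In Control, Capg was highest at 273 ± 22.8 per kb (SD, n = 3), followed by Gsn at 90.4 ± 6.99 (SD, n = 3) and Flii at 24.8 ± 1.71 (SD, n = 3). The ranges of these 3 members over all 6 samples did not overlap. Vill was 3.17 ± 2.01 per kb (SD, n = 3) and Svil 2.04 ± 0.0397 (SD, n = 3), and their Control values overlapped, so Vill and Svil could not be ordered. In Cripto KO samples the order was Capg (255 ± 18.7 per kb; SD, n = 3), Gsn (96.5 ± 3.02; SD, n = 3), Flii (23.8 ± 0.713; SD, n = 3) and Svil (2.07 ± 0.105; SD, n = 3), with Vill at 0.0216 per kb or less in each sample. Of the reads of the 5 genes, Capg took 56.4% to 62.3% in all samples and Vill 0.614% to 2.26% in the Control samples. The total of the 5 normalized values ran from 1067 to 1210 in Control, a range that overlaps the 1049 to 1135 of the Cripto KO samples.

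Genes that flank Vill were examined next, since position was no part of how the members were chosen. Of 50 annotated genes within 1 Mb, 19 were in the table. None passed the adjusted threshold with limma or edgeR, against 1 gene with DESeq2, Itga9. In limma 3 of the 19 (15.8%, beside 8.59% of all genes) had an unadjusted p-value under 0.05, and all 3 (Itga9, Plcd1 and Wdr48) were higher in Control. The groups did not overlap for 5 of the 19 (26.3%, beside 14.5% of all genes), which were Itga9, Plcd1, Wdr48, Golga4 and Myd88, and again all 5 were higher in Control. Wdr48, Golga4 and Myd88 were named after their values had been seen. The median log2 fold change of the 19 genes was 0.09. Genes of one chromosome region are not independent of each other.

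Plcd1, the convergent neighbour, had values of 2.25, 2.16 and 2.24 in Control, against 1.17, 1.24 and 1.28 in Cripto KO MPs. The values within each group were close together and the groups did not overlap. The log2 fold change was 0.85 (interval 0.27 to 1.43, SE 0.26), which did not pass the adjusted threshold (limma, adjusted p = 0.443), and it rests on few reads, 85 in the 3 Control samples and 53 in the 3 Cripto KO samples. Among the Control samples Plcd1 differed by 1.04-fold where Vill differed by 3.23-fold, so the spread of Vill in Control was not seen in its neighbour. The deposited values carry no information on strand, and the annotated exons of the genes do not overlap. Whether reads from beyond the annotated end of 1 gene were counted for the other was not tested.

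Itga9, which encodes the α9 integrin subunit, begins and ends upstream of Vill, 152 kb from it. Control replicates gave 102, 89.6 and 91.1 and Cripto KO replicates 70.0, 69.5 and 70.5, with every Control value above every Cripto KO value. Its log2 fold change of 0.43 (SE 0.07, limma adjusted p = 0.0915) did not pass the threshold, and did with DESeq2 (adjusted p = 0.00558; range over the alternatives 0.00558 to 0.405). Ctdspl, a phosphatase gene that ends 8.78 kb upstream of Vill, lies between them. Control replicates gave 4.09, 5.64 and 4.77 and Cripto KO replicates 3.91, 4.57 and 4.45, with overlap (log2 fold change 0.16, limma adjusted p = 0.854). Oxsr1, a kinase gene 167 kb downstream, had values of 24.0, 20.9 and 24.9 in Control, against 20.5, 23.7 and 27.4 in Cripto KO MPs, also with overlap (log2 fold change -0.03, limma adjusted p = 0.964). Ctdspl, whose groups overlapped, thus lies between Itga9 and Vill, whose groups did not. It had 55 to 74 reads per sample, and its interval of -0.27 to 0.59 includes the 0.43 of Itga9. A change of that size in Ctdspl could therefore not be told from none.

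**Figure D2:**
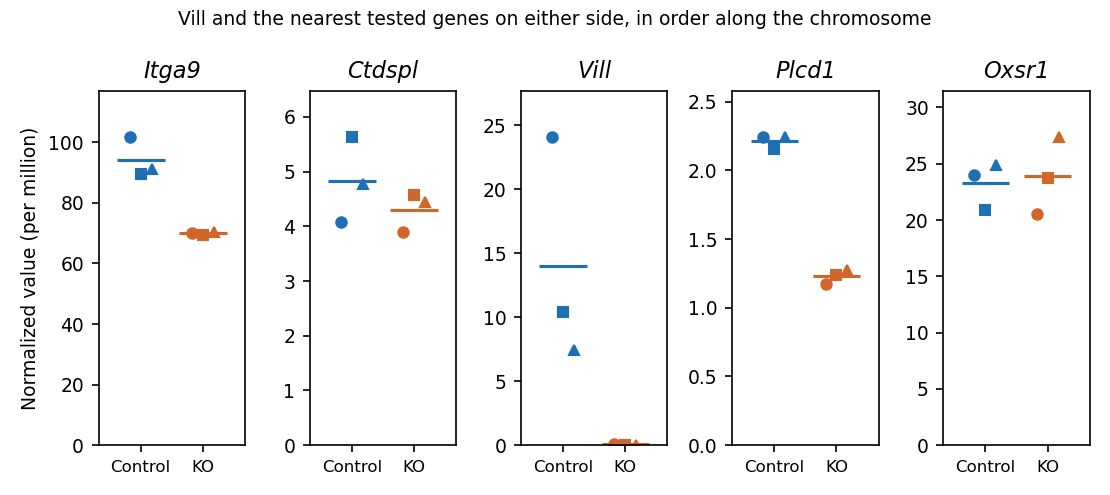
Normalized values (scaled to 1000000 reads, linear axes from 0) of Vill and the 2 nearest tested genes on each side, with replicates 1, 2 and 3 as circles, squares and triangles and group means as bars. Itga9, Vill and Plcd1 are higher in each Control sample (blue) than in each Cripto KO sample (orange), and Ctdspl and Oxsr1 overlap.

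**Figure D3:**
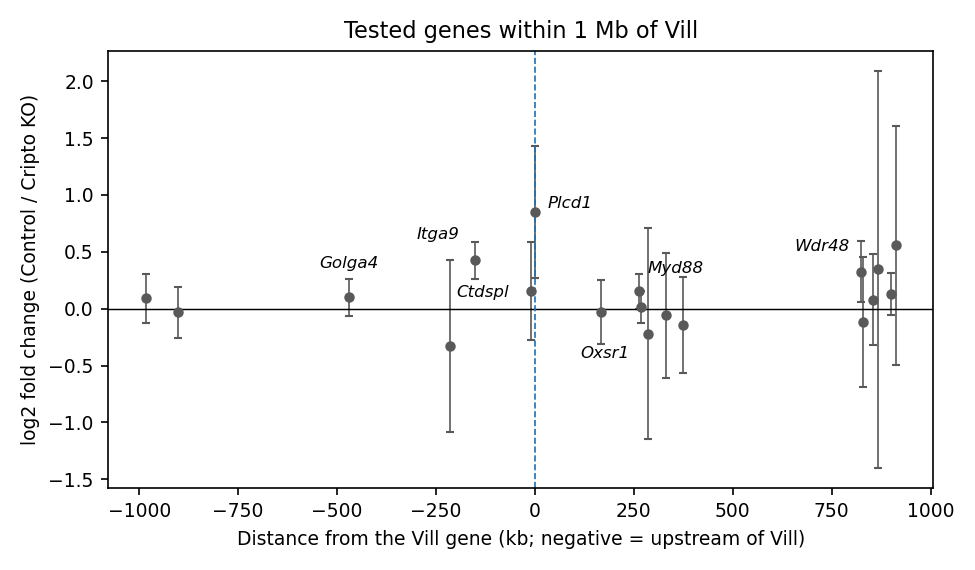
Log2 fold change (Control/Cripto KO) with 95% intervals for the 19 tested genes within 1 Mb of Vill, against distance from Vill in kb. Plcd1 (0.85), Itga9 (0.43) and Wdr48 (0.32) have intervals above 0, and the other intervals include 0.

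Of 4 listed partners of Flii, 1 had an unadjusted p-value under 0.05 (limma), beside 8.59% of all genes. Myd88, the adaptor of Toll-like receptors, is on that list and is also a neighbour of Vill. Control replicates gave 65.9, 62.9 and 64.2 and Cripto KO replicates 60.7, 57.4 and 55.8, at a log2 fold change of 0.15 (limma adjusted p = 0.598). The groups did not overlap for 2 of the 4 partners, Myd88 and Lrrfip1 (50%, beside 14.5% of all genes). All 4 had positive log2 fold changes. Lrrfip1, which encodes a protein that binds Flii, had the smallest p of the list, at a log2 fold change of 0.25 (limma adjusted p = 0.555).

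Other genes listed by role were actin regulators, further gelsolin and headpiece relatives and partners of Flii. Of 80 such genes, 76 were in the table. None passed the adjusted threshold with limma, edgeR or DESeq2, and 7 (9.21%, beside 8.59% of all genes) had an unadjusted p-value under 0.05 in limma, with 3 favoring Control and 4 favoring Cripto KO MPs. Their median log2 fold change was 0.03.

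The nearest relatives of Vill were low in both groups. Vil1, the gene of villin, had 1 to 5 reads per sample and Avil, that of advillin, had 0 to 3. Their values were 0.114 to 0.449 and 0.0408 to 0.258 in Control, against 0.286 to 0.389 and 0.0354 to 0.241 in Cripto KO MPs, so neither was clearly above the floor in either group. Of 6 epithelial markers Vil1 was the only gene in the table, and the others were not analysed here. Scin, the gene of scinderin, was not analysed here. The headpiece genes Ablim1 (1.36, 2.76 and 1.51 in Control, against 3.08, 2.51 and 3.21 in Cripto KO MPs), Ablim3 and Dmtn had adjusted p-values of 0.579, 0.69 and 0.766 (limma). All 6 genes of this list had negative log2 fold changes, with a median of -0.45, the median of their mean values was 0.868, and the sign of Vil1 and Avil turned when single samples were left out.

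Among 17 genes of cofilin-dependent disassembly, 0 had an unadjusted p-value under 0.05 (limma), beside 8.59% of all genes. Cfl1, the main cofilin of non-muscle cells, ran from 1071 to 1204 in Control, overlapping the 1148 to 1175 of Cripto KO MPs, and Ssh2, a phosphatase that activates cofilin, had the smallest p of the list (log2 fold change 0.25, limma adjusted p = 0.62). Among 9 genes of barbed-end capping, the function that Capg shares, 1 had an unadjusted p-value under 0.05 (limma), beside the same 8.59% of all genes. This was Carmil1, a regulator of capping protein, at a log2 fold change of 0.53 (limma adjusted p = 0.537), and Capzb, the β subunit of capping protein, was at 0.14 (limma adjusted p = 0.59).

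Among 23 genes of filament nucleation and elongation, the formin gene Fmnl3 had an unadjusted p-value under 0.05, at a log2 fold change of -0.34 (limma adjusted p = 0.5). Arpc1b, a subunit of the Arp2/3 complex and the most abundant mRNA of that list, was at 0.06 (limma adjusted p = 0.828). Among 10 cross-linkers, Pls3 had the smallest p (log2 fold change -0.61, limma adjusted p = 0.5). Lcp1, the plastin of leukocytes, was at -0.06 on the same scale (limma adjusted p = 0.852). Among 7 actins and monomer-binding genes, Tmsb4x (thymosin β4) was highest, with a mean of 4164 in Control and 3992 in Cripto KO samples. Acta2, the actin of smooth muscle, had values of 7.84, 8.21 and 8.53 in Control, against 9.81, 10.5 and 10.6 in Cripto KO MPs, without overlap (log2 fold change -0.33, limma adjusted p = 0.523).

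**Figure D4:**
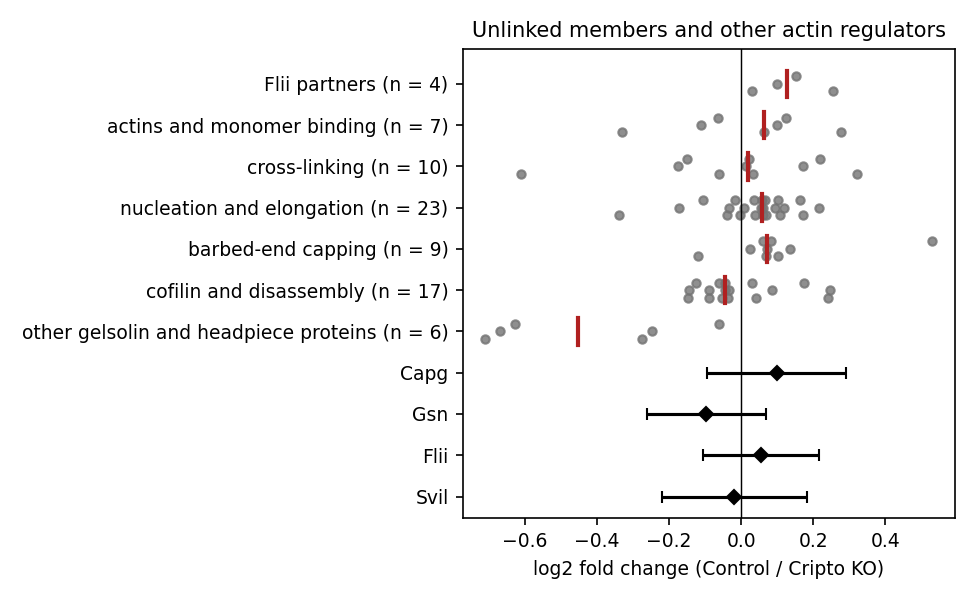
Log2 fold changes (Control/Cripto KO). Diamonds with 95% intervals are the 4 unlinked members, whose intervals all include 0. Grey points are the genes of the 7 lists (actin regulators, gelsolin and headpiece relatives, Flii partners), with red bars at the list medians (0.13 for the Flii partners at the top and -0.45 for the low-abundance gelsolin and headpiece genes).

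The genes with the pattern most like that of Vill over the 6 samples, among 11959 others with a mean value of at least 1, were Ptgs2, Rtfdc1, Rcbtb2, Zeb2 and Aph1b, by Pearson correlation of log2 values, from 0.995 for Ptgs2 to 0.982 for Aph1b. Correlations over samples that fall into groups mostly follow the group means, so they are given as a description only. Ptgs2, which encodes cyclooxygenase-2, had values of 331, 317 and 324 in Control, against 252, 243 and 246 in Cripto KO MPs. Aph1b, a subunit of γ-secretase, had values of 14.5, 16.1 and 12.4 in Control, against 6.95, 6.34 and 5.76 in Cripto KO MPs. Of the pair, Aph1b passed the adjusted threshold in limma (adjusted p = 0.0249; range over the alternatives 3.7e-06 to 0.155), which was lost without Control replicate 2 or 3 or any 1 Cripto KO sample. In neither did the groups overlap, and both were well above the floor in all 6 samples, unlike Vill. By this measure Itga9 ranked 10 and Plcd1 ranked 19, and the ranks of Flii, Capg, Svil and Gsn were 3390, 3827, 8061 and 10681. These ranks mostly repeat the differences between the groups given above for the same genes, and add no separate result.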

How the data were processed

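Per the labels and the study's methods, the authors trimmed reads with cutadapt 1.7.1, used RSEM 1.2.20 on the transcriptome of GRCm38 (release 91) and normalized with limma. EdgeR is also named in the submitters' processing notes. The counting strand is not given in the sources used here. The authors deposited a normalized signal per gene and sample, which is the reads of the gene plus 0.5, scaled to 1000000 reads. Working back, 100.0% of 78048 values were whole reads within 0.01 read, and totals ran from 12688968 to 15659847 reads per sample.

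The groups were compared by limma (version 3.58.1 in R 4.3.3) on log2 values without a pseudocount, with a variance trend, over 13008 genes, with no replicate block and with Benjamini-Hochberg adjustment over all genes. Alternatives tried were a pseudocount of 0.5 or 1, dropping genes with a mean value under 1, quantile normalization, median centring, no trend, the edgeR quasi-likelihood test (version 4.0.16) and DESeq2 (version 1.42.0) on recovered reads, a replicate block, leaving out each sample, and windows of 0.5 and 2 Mb. The code was tested on simulated data. GENCODE mouse release 21 (GRCm38) gave exon lengths, transcripts and positions, the last for 12989 genes, and promoters came from RefSeq (GRCm38.p6), where Vill, Plcd1, Capg, Gsn and Flii matched by symbol.

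The members and lists were chosen with earlier results of these data known. Named in the text are the members, all other gelsolin and headpiece genes, the 2 tested genes nearest to Vill on each side, any gene with an adjusted p-value under 0.05 within 1 Mb or in an actin list, the most abundant gene and that with the smallest p of each actin list, and the 5 genes most correlated with Vill, besides genes named to identify a count or a marker. Some genes that this rule names are not reported here. Of 1 symbol with 2 rows (Itgam), the more abundant was used. Limma p-values set the difference between the groups against the spread within them, moderated by the variance trend over all genes. They cover these samples only. Figures were drawn with matplotlib 3.10.9 (Python 3.11.15).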

Additional observations from a re-analysis of the deposited data

How the results depend on the processing

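Vill had a positive log2 fold change (Control/Cripto KO) of 7.98 in the fit without a pseudocount, a value set by how reads of 0 are treated. It was 4.54 with a pseudocount of 0.5, 3.67 with a pseudocount of 1 and 9.16 with DESeq2, and went from 7.50 to 8.46 when 1 sample was left out. Gsn, Capg, Flii and Svil had adjusted p-values over 0.05 in all 60 alternative values, and 58 of these kept the direction. Leaving out 1 sample gave log2 fold changes between -0.000134 and 0.0945 for Flii and between -0.0432 and 0.0224 for Svil, which includes a change of sign for each. The number of genes called among all genes was 17, and was 6 with quantile normalization, 5 without a variance trend, 74 with DESeq2 and 5 to 31 when 1 sample was left out (31 without Control replicate 1, 5 without Cripto KO replicate 2, 7 without Control replicate 3 or Cripto KO replicate 3, and 10 without Cripto KO replicate 1). The cause of these differences was not tested. Within 1 Mb of Vill, 0 genes were called in each alternative other than DESeq2, which called 1 (Itga9), and windows of 0.5 and 2 Mb held 0 called genes in limma. No alternative called a gene of the actin lists, where 3 genes had an unadjusted p-value under 0.05 with DESeq2 against 7 in limma. Of 401 values of 27 other genes, 377 kept direction and side of the threshold, and 15 lost a call (Aph1b and Mmp9). When 1 sample was left out, the log2 fold change went from -0.88 to 0.63 for Avil, from -0.60 to 0.39 for Vil1, from -0.135 to 0.0730 for Oxsr1 and from -0.0821 to 0.00199 for Cfl1, each with a change of sign.

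The values showed no positive likeness between samples of the same replicate number, which cannot exclude a pairing by litter or day. Deviations from the group means of same-numbered samples had correlations of -0.21, -0.0052 and -2.5e-05 over 11960 genes. Between differently numbered samples, the correlations ran from -0.15 to 0.14. With the replicate block 2 genes were called among all genes, and Aph1b (adjusted p = 0.102, limma) and Mmp9 (adjusted p = 0.0572, limma) were no longer called. The block changed no call of Gsn, Capg, Flii, Svil and the 25 other genes for which it was run.

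Depth limits the genes with few reads, among them Vil1, Avil and Dmtn at no more than 15 reads per sample, Ablim3 at 9 to 34, Plcd1 at 17 to 30 and Ablim1 at 18 to 48.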

Other observations

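The 6 endothelial markers summed to 39.1 to 47.3 in Control and 37.1 to 43.8 in Cripto KO samples. Of 7 neutrophil markers 6 were in the table, summing to 23.3 to 33.7 in Control, against 51.2 to 55.7 in Cripto KO MPs, with S100a9 and Ngp at the floor in all samples. Most of that gap was Mmp9, and the 5 other genes summed to 8.14 to 11.2 in Control and 10.2 to 12.0 in Cripto KO MPs, with overlap. Mmp9, which macrophages also express, had values of 15.2, 22.4 and 21.9 in Control, against 39.3, 45.6 and 41.5 in Cripto KO MPs (log2 fold change -1.10, limma adjusted p = 0.0313; range over the alternatives 1.3e-09 to 0.296), lost its call without Control replicate 3 or any 1 Cripto KO sample, and was the only gene of the marker lists that passed. Of 6 dendritic cell markers 5 were in the table, summing to 7.38 to 10.7 in Control and 8.29 to 9.06 in Cripto KO samples. Of 6 lymphocyte markers 2 were in the table, both at the floor. The 3 platelet markers in the table summed to 562 to 685 in Control and 648 to 731 in Cripto KO samples, nearly all of it Pf4, which macrophages also express.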
